A study of Mus musculus with 4 samples.

Results

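The genes described here are 37 genes of glycolysis and of the response to low oxygen, taken by symbol from 25239 gene symbols in RNA-seq count tables of mouse B16 melanoma tumors. They fall by role into 4 transporters of glucose and lactate, 17 core glycolytic enzymes, 3 regulators of glycolytic flux, 2 alpha subunits of the hypoxia-inducible factor (HIF) and 11 genes that HIF is known to induce. All 37 were present in every table and passed a mean count of 10 reads over the libraries, the minimum used for comparing genes, as did 13357 genes in all.

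B16 is a transplantable melanoma line, here grown under the skin of each flank in B6 mice. Treatment followed on day 7, CTX was given to the mice by i.p. injection the day before ACT, and tumors were taken 12 days after ACT, steps that the labels do not expand. The CTX library came from mice whose left tumors were injected with PBS and that received neither T cells nor virus. Left tumors injected with free MV, with TRP-1 T cells given by vein, made up the MV left tumor library, and the remote tumor library came from the right tumors of that treatment group, which were not injected. For the TRP-1MV library the intravenous T cells themselves brought MV. TRP-1MV and the MV left tumor are called the virus-treated libraries below. The tables write MYXV for MV, the usual abbreviation of myxoma virus. A group given T cells alone was not analysed here. Each group had 1 library. The labels state n = 2 without saying how mice or tumors were combined, so no value below has a replicate error, and no test between groups was possible. One label field names a melanoma cell line as the source where the protocol names tumor tissue.

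Glycolysis splits glucose into pyruvate, and in tumors much of the pyruvate is reduced to lactate and exported. When oxygen is low, HIF alpha subunits escape hydroxylation by the Egln enzymes, pair with Arnt, and switch on genes that bear a hypoxia response element. These include most glycolytic enzymes and glucose transporters, genes of mitophagy and pH control, and Egln3 itself, a feedback inhibitor. Activated macrophages, neutrophils and T cells also run on glycolysis.

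Total counts were 12375526 (MV left tumor), 14802809 (TRP-1MV), 21790759 (remote tumor) and 20811605 (CTX). Genes with reads numbered 17232, 17436, 15951 and 15907 in that order. Rn45s, Lars2 and Rpph1 together took 1.64%, 1.62%, 0.164% and 0.141% of the total. All of these values thus split along the line between the virus-treated libraries and the others. What the share of those genes contributed to the results was not tested. The limit that a count of 0 allows, 3 reads, corresponded to 0.151 to 0.222 CPM, read counts relative to the TMM-scaled library size. The labelled tumor was checked against its markers. Summed CPM of 12 pigment cell markers was 6309 in the MV left tumor and 5900 in TRP-1MV, against 26690 in the remote tumor and 26238 in CTX, with no marker at 0 in any library. Over 12 pan T cell markers it was 340 and 341, against 10.05 and 10.43, and over 12 macrophage and monocyte markers 992 and 1444, against 112 and 89.6, again with none at 0. Over 10 neutrophil markers it was 173 and 274, against 1.76 and 1.25, with 4 of them at 0 in CTX (S100a8, Retnlg, Cxcr2 and Ltf), 5 in the remote tumor and 1 in the MV left tumor. For dendritic cells (8 markers) it was 163 and 227 against 10.5 and 10.7, for B cells (5) 53.1 and 55.8 against 0.804 and 0.834, and for endothelium (6) 18.9 and 19.6 against 8.29 and 7.98. It ran from 51.3 to 54.3 for fibroblasts (7) and from 9.24 to 11.9 for skeletal muscle (5). Erythroid markers (5) and keratinocyte markers (4) stayed below 1 CPM in each library. These marker differences lie between the same libraries as every difference below, and their part in the results was not tested.

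On TMM-scaled CPM per kb of exon, which allows levels of different genes to be compared, the 7 most abundant members of every library were core enzymes. Aldoa ranked first among the 37 in all 4 libraries, at 692 in the MV left tumor, 689 in TRP-1MV, 1808 in the remote tumor and 1700 in CTX. Pgk1, Eno1, Ldha, Pkm and Tpi1 filled ranks 2 to 6 in each library, in differing order, and Pgam1 rank 7. Gapdh and Gpi1 followed at ranks 8 and 9. Some core enzymes were far lower, such as Eno2 at rank 27 in the virus-treated libraries and 35 in the other ones. Among the lowest were Pfkfb4 (1.24 to 2.20), Ankrd37 (1.42 to 4.44) and Epas1 (2.29 to 4.23). Egln3 held rank 34 in CTX and in the remote tumor, rank 24 in the MV left tumor and rank 21 in TRP-1MV. Lengths were summed over all annotated exons, so genes with long rare exons are understated.

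**Figure D1:**
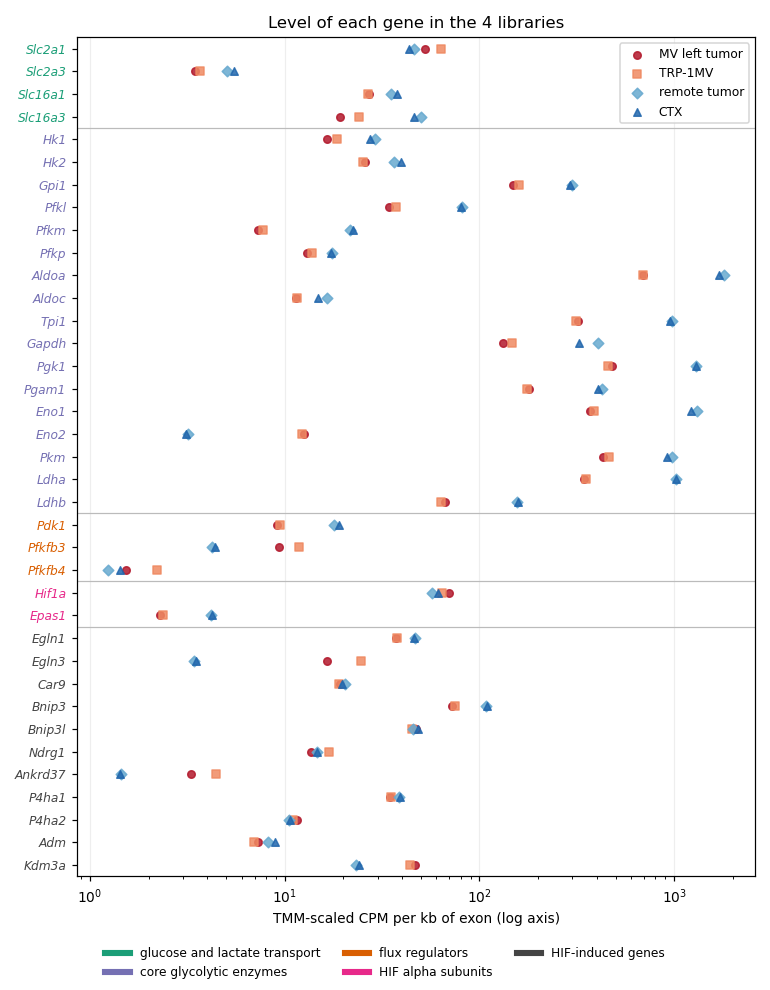
Each row is 1 of the 37 genes, colored by role, and each point its TMM-scaled CPM per kb of exon (log axis) in 1 of the 4 libraries. For most core enzymes the points of the MV left tumor and TRP-1MV lie left of those of the remote tumor and CTX, and for Eno2, Pfkfb3, Egln3, Ankrd37 and Kdm3a they lie right of them.

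A call of higher or lower required a ratio of TMM-scaled CPM of at least 2 and a 95% exact binomial interval of the log2 ratio that excluded equality. Intervals, given in brackets, cover counting error only. In the MV left tumor against CTX, 13 of the 37 genes were lower (35.1%) and 4 higher (10.8%), where 11.1% of all genes compared were lower, 18.1% higher and 29.2% either. In TRP-1MV against CTX, 11 were lower (29.7%) and 4 higher (10.8%), where 11.7% of all genes were lower, 18.5% higher and 30.2% either. These comparisons share the CTX library. In all, 17 members were called in at least 1 of them and 15 in both. The matching shares of all genes were not computed, so these counts do not set the members apart from other genes. Fewer cells of a type and less RNA per cell cannot be told apart in such tissue.

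**Figure D2:**
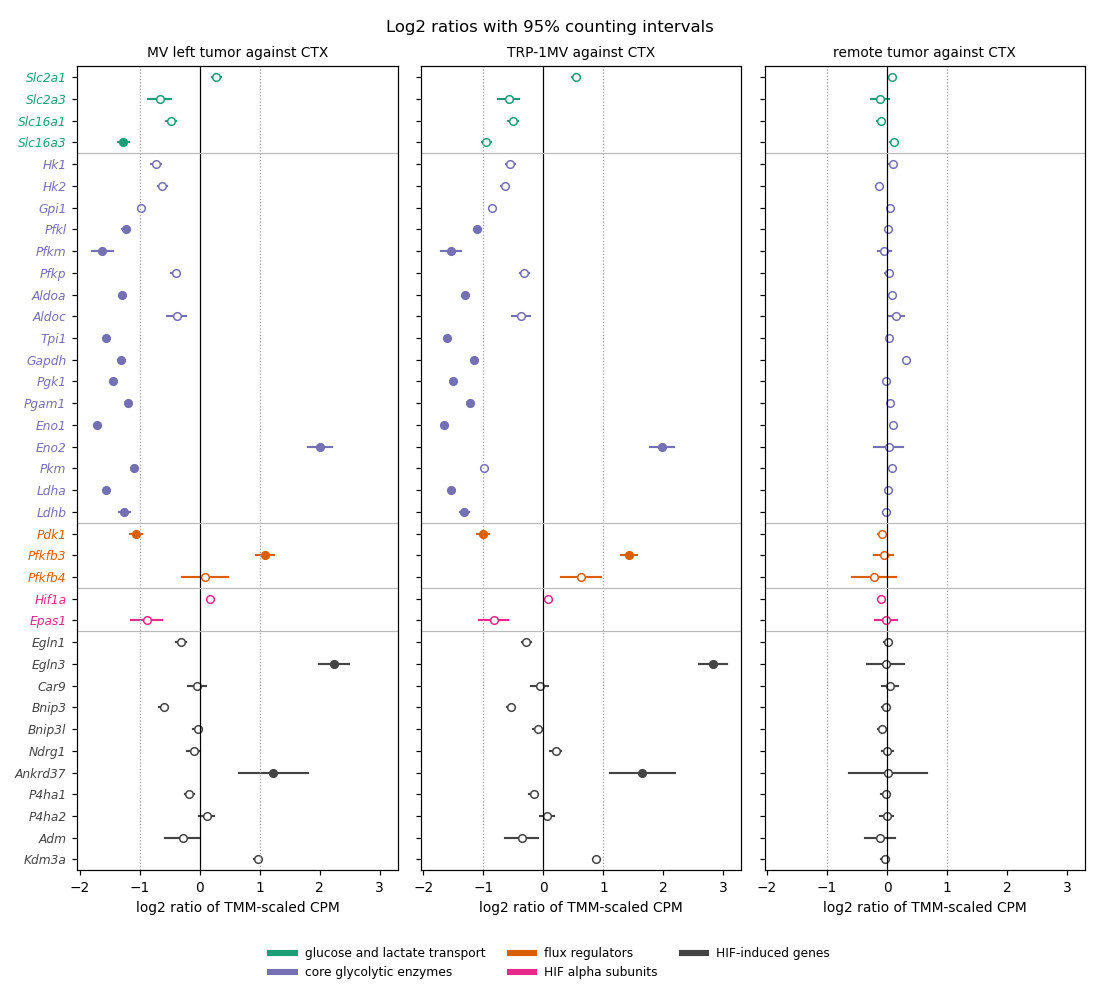
Log2 ratios of TMM-scaled CPM with 95% counting intervals for the 37 genes in 3 comparisons against CTX; filled points passed the calling rule and dotted lines mark a ratio of 2 in either direction. In both virus-treated libraries the core enzymes lie mostly left of 0 while Eno2, Pfkfb3, Egln3 and Ankrd37 lie to the right, and in the remote tumor no point passed the rule.

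Among the transporters, the lactate exporter gene Slc16a3 (MCT4) was the 1 called. It was at 102 CPM in the MV left tumor, 127 in TRP-1MV, 265 in the remote tumor and 246 in CTX, so the virus-treated libraries lay below both others. Its log2 ratio to CTX was -1.27 [-1.36, -1.18] in the MV left tumor, which passed the rule, and -0.95 [-1.02, -0.87] in TRP-1MV, which did not. Slc2a1, encoding the widespread glucose transporter GLUT1, went the other way at 184, 221, 161 and 152 CPM, in the same order of libraries. Its log2 ratios of 0.28 [0.20, 0.35] and 0.54 [0.47, 0.62] stayed under the rule, although both intervals excluded equality. The high-affinity glucose transporter gene Slc2a3 had log2 ratios of -0.67 and -0.58, and Slc16a1, encoding the lactate carrier MCT1, -0.48 and -0.50, none of which passed.

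Of the 17 core enzymes, 11 were lower and 1 higher in the MV left tumor against CTX, and 10 lower and 1 higher in TRP-1MV against CTX. Their median log2 ratio was -1.23 in the former and -1.15 in the latter, beside -0.05 and -0.07 over all genes compared and -1.95 and -2.04 over the 12 pigment markers. With total counts 8 and 7 of the 17 were lower (medians -0.98 and -0.91), and on a scale of 17 housekeeping genes 7 and 7 (medians -0.97 and -0.87). Of all genes compared, 6.66% and 6.97% were lower with total counts and 6.32% and 6.48% on the housekeeping scale. Together the core enzymes took 1.31% of all reads in the MV left tumor, 1.35% in TRP-1MV, 2.94% in the remote tumor and 2.82% in CTX.

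The first steps trap glucose and commit it to the pathway, and the hexokinase and isomerase genes did not pass the rule. Hk2, encoding the inducible hexokinase of tumors, was at 154 CPM in the MV left tumor, 151 in TRP-1MV, 216 in the remote tumor and 236 in CTX. Its log2 ratios to CTX of -0.62 [-0.70, -0.55] and -0.64 [-0.71, -0.57] did not pass the rule. Neither did those of Hk1, the housekeeping hexokinase gene, at -0.73 and -0.55, or of the glucose phosphate isomerase gene Gpi1, at -0.97 and -0.86. Of the phosphofructokinase genes, the liver-type Pfkl (-1.23 and -1.10) and the muscle-type Pfkm (-1.62 and -1.54) were lower, whereas the platelet-type Pfkp (-0.40 and -0.31) did not pass. The Pfkl calls were lost with total counts (-0.98 and -0.86) and on the housekeeping scale (-0.97 and -0.82).

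From aldolase onward nearly every main enzyme was lower. Aldoa, encoding the aldolase that cleaves the sugar bisphosphate, was at 2013, 2005, 5263 and 4949 CPM in the MV left tumor, TRP-1MV, the remote tumor and CTX. Its log2 ratios to CTX were -1.30 [-1.32, -1.28] and -1.30 [-1.32, -1.29]. The brain-type aldolase gene Aldoc, at -0.39 and -0.36, did not pass. Tpi1, encoding triose phosphate isomerase, was at 885, 858, 2686 and 2616 CPM, with log2 ratios of -1.56 and -1.61.

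Gapdh, encoding the dehydrogenase that makes NADH, was at 543 CPM in the MV left tumor, 606 in TRP-1MV, 1681 in the remote tumor and 1347 in CTX. Its log2 ratios were -1.31 [-1.35, -1.27] and -1.15 [-1.19, -1.12], in a gene often used as a reference for other transcripts. Pgk1, encoding the first ATP-forming kinase of the pathway, was at 1074, 1023, 2886 and 2916 CPM, with log2 ratios of -1.44 and -1.51. Pgam1, the mutase gene, had -1.19 and -1.22. On the housekeeping scale and with total counts, the call of Pgam1 was lost in both comparisons (-0.92 to -0.98) and that of Gapdh in TRP-1MV (-0.87 and -0.91).

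The enolase genes Eno1 and Eno2 moved in opposite directions. Eno1, encoding the widespread enolase (mm10, chr4:150236721-150248879, plus strand), was at 1984 CPM in the MV left tumor, 2077 in TRP-1MV, 6999 in the remote tumor and 6523 in CTX. It had the lowest ratio of all 37 in both comparisons, at log2 ratios of -1.72 [-1.74, -1.70] and -1.65 [-1.67, -1.63]. Eno2, encoding the enolase named for neurons (chr6:124760053-124769673, minus strand), was at 59.0, 57.4, 14.9 and 14.7 CPM. Its log2 ratios were 2.01 [1.81, 2.21] and 1.97 [1.78, 2.17], and both virus-treated libraries lay well above both others. The table also lists Eno1b, a near-identical copy of Eno1, at 389, 360, 2532 and 1834 reads, so reads of that pair can have been split. Several core enzymes have processed pseudogenes, and how reads that map to several places were counted is not given in the sources used here.

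The last steps make pyruvate and lactate. Pkm, the pyruvate kinase gene of tumors and immune cells, was at 2148, 2299, 4848 and 4585 CPM, with log2 ratios of -1.09 [-1.11, -1.07], which passed, and -0.996 [-1.01, -0.98], which did not. The former did not pass with total counts (-0.85) or on the housekeeping scale (-0.83), and the latter passed (-1.0011) with TMM factors computed without ribosomal protein genes. Ldha, encoding the lactate dehydrogenase subunit that favors lactate formation (chr7:46841475-46855627, plus strand), was at 1145 CPM in the MV left tumor, 1163 in TRP-1MV, 3397 in the remote tumor and 3369 in CTX. Its log2 ratios were -1.56 [-1.58, -1.53] and -1.53 [-1.56, -1.51]. The heart-type subunit gene Ldhb was also lower, at -1.25 and -1.31, the former not on the housekeeping scale (-0.99).

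The flux regulators split. Pfkfb3, encoding the bifunctional enzyme that makes the activator of phosphofructokinase (chr2:11471433-11554077, minus strand), was at 70.8 CPM in the MV left tumor, 89.4 in TRP-1MV, 32.1 in the remote tumor and 33.3 in CTX. Its log2 ratios of 1.09 [0.94, 1.24] and 1.43 [1.29, 1.56] passed the rule. Its relative Pfkfb4, at 101, 173, 120 and 134 reads, did not pass, at 0.10 [-0.29, 0.48] and 0.62 [0.29, 0.96]. Pdk1, encoding a mitochondrial kinase that inactivates pyruvate dehydrogenase, was at 70.7, 73.6, 140 and 147 CPM. It was lower at -1.06 [-1.17, -0.95] and -1.001 [-1.10, -0.90], both at the edge of the rule: the former did not pass on 3 other scalings and the latter on 4.

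Neither alpha subunit gene passed. Hif1a was at 410 CPM in the MV left tumor, 380 in TRP-1MV, 338 in the remote tumor and 363 in CTX. The log2 ratios to CTX were 0.18 [0.12, 0.23] and 0.07 [0.02, 0.12]. Epas1, encoding the alpha subunit prominent in endothelium and macrophages, was at 12.8, 13.3, 23.4 and 23.6 CPM. For it they were -0.88 [-1.14, -0.63] and -0.83 [-1.07, -0.59]. HIF activity is set largely by protein stability, which these counts do not measure.

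Of the 11 HIF-induced genes, 2 (18.2%) were higher and none lower in either comparison with CTX, a share of higher genes near the 18.1% and 18.5% of all genes. Their median log2 ratio was -0.04 in the MV left tumor and -0.06 in TRP-1MV, beside -0.05 and -0.07 over all genes compared. The medians turned to 0.23 and 0.22 when the libraries were scaled on 17 housekeeping genes. That scale added 0.26 and 0.28 to the log2 ratio of every gene, so the sign change is not particular to these genes. Egln3, an oxygen-sensing hydroxylase gene (mm10, chr12:54178981-54203860, minus strand), was at 43.7 CPM in the MV left tumor, 65.6 in TRP-1MV, 9.14 in the remote tumor and 9.28 in CTX, from 590, 1056, 182 and 178 reads. It had the highest ratio of all 37 in both comparisons, 4.70-fold (log2 ratio 2.23 [1.99, 2.48]) and 7.06-fold (2.82 [2.59, 3.06]) above CTX. Its relative Egln1, the main oxygen sensor under normal conditions, was at 133, 136, 167 and 165 CPM, with log2 ratios of -0.31 and -0.28.

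Ankrd37, a small ankyrin repeat gene, was the other higher member. It had 69, 110, 44 and 42 reads, with log2 ratios of 1.22 [0.65, 1.81] and 1.64 [1.12, 2.19]. Kdm3a, a histone demethylase gene, was at 385 CPM in the MV left tumor, 363 in TRP-1MV, 192 in the remote tumor and 197 in CTX. Its log2 ratios of 0.97 [0.91, 1.03] and 0.88 [0.82, 0.94] lay just under the rule and passed it on the housekeeping scale and with total counts, the former also with upper-quartile factors.

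The classical hypoxia markers did not follow Egln3. Car9, encoding the carbonic anhydrase of hypoxic tumor cells, was at 44.2 CPM in the MV left tumor, 43.5 in TRP-1MV, 46.9 in the remote tumor and 45.4 in CTX. Its log2 ratios of -0.04 [-0.19, 0.11] and -0.06 [-0.21, 0.09] included equality and changed sign on other scalings. The mitophagy receptor gene Bnip3 stood at -0.60 and -0.54, and its relative Bnip3l at -0.03 and -0.09. Ndrg1, a stress-responsive gene, stood at -0.10 and 0.20, the collagen hydroxylase genes P4ha1 at -0.17 and -0.16 and P4ha2 at 0.11 and 0.06, and Adm, encoding the vasodilator adrenomedullin, at -0.28 and -0.36. None of these passed, and the small values of Bnip3l, Ndrg1 and P4ha1 also changed sign on other scalings in 1 or both comparisons.

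Ratios taken inside a library do not depend on the scaling. The median log2 ratio of the HIF-induced genes lay above that of the core enzymes by 1.19 in the MV left tumor against CTX and by 1.09 in TRP-1MV against CTX. Per 10000 reads of the 17 core enzymes, Egln3 had 36.3 [33.4, 39.4] in the MV left tumor, 53.0 [49.8, 56.3] in TRP-1MV, 2.84 [2.44, 3.29] in the remote tumor and 3.03 [2.60, 3.51] in CTX. The virus-treated libraries were therefore 12.0-fold and 17.5-fold above CTX on this measure.

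Because the core reads themselves were lower, a gene with the same scaled level in both libraries reads 2.55-fold above CTX in the MV left tumor and 2.47-fold in TRP-1MV on this measure. All 20 members outside the core were above CTX in both, as were 94.5% and 93.8% of all genes compared outside the core, so this count is near the background. In the MV left tumor the fold ran from 1.06 for Slc16a3 to 12.0 for Egln3, with a median of 2.43, beside 2.45 over all genes. In TRP-1MV it ran from 1.24 for Pdk1 to 17.5 for Egln3, with a median of 2.35, beside 2.36 over all genes. Ankrd37 (5.93-fold and 7.71-fold), Pfkfb3 (5.42 and 6.64) and Kdm3a (4.97 and 4.55) followed Egln3. Car9, at 2.48-fold and 2.37-fold, and Hif1a, at 2.88-fold and 2.59-fold, lay near the values of a gene with an even scaled level.

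**Figure D3:**
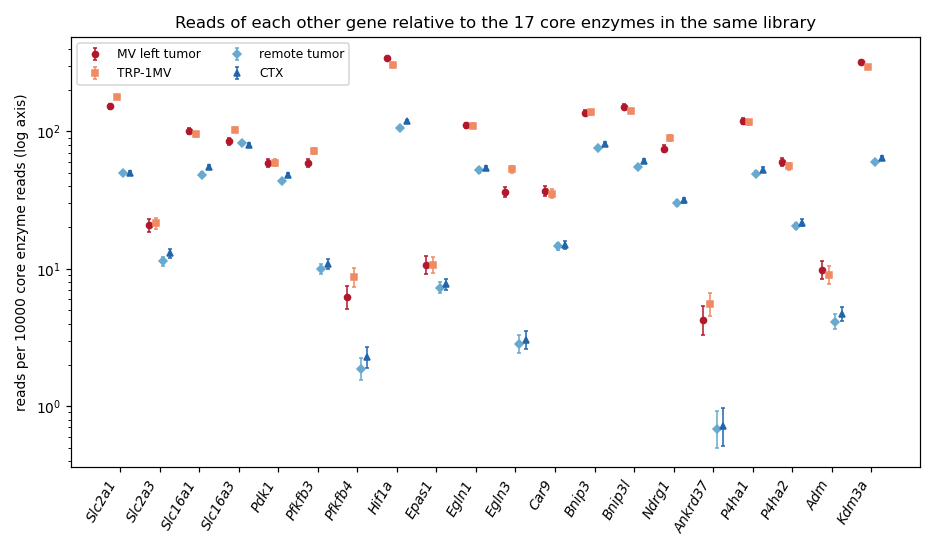
Reads of each of the 20 members outside the core, per 10000 reads of the 17 core enzymes in the same library (log axis), with 95% exact binomial intervals. The points of the MV left tumor and TRP-1MV lie above those of CTX for all 20 genes, where a gene with an even scaled level would lie 2.55-fold and 2.47-fold above, and Egln3 lies 12.0-fold and 17.5-fold above.

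Shares of reads within an enzyme or transporter family, also free of scaling, differed between the libraries. They are shares of reads, not of molecules, and brackets give 95% exact binomial (Clopper-Pearson) intervals. Of the summed reads of Eno1 and Eno2, Eno2 held 2.69% [2.52, 2.87] in TRP-1MV and 2.89% [2.69, 3.09] in the MV left tumor. It held 0.213% [0.189, 0.238] in the remote tumor and 0.224% [0.199, 0.252] in CTX. Eno1b and Eno3 were left out of this sum. Eno3 had 313 reads in the MV left tumor, 345 in TRP-1MV, 465 in the remote tumor and 470 in CTX. Pfkp held 40.9% and 40.2% of phosphofructokinase reads in the virus-treated libraries against 27.7% and 27.4%, while the share of Pfkl was 53.4% and 54.2% against 63.8% and 63.6%.

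The hexokinase family was counted with Hk3, which is not among the 37. Hk3, a hexokinase gene known from myeloid cells, held 5.06% [4.41, 5.76] and 6.54% [5.89, 7.23] of hexokinase reads in the MV left tumor and TRP-1MV, against 0.548% [0.408, 0.720] in the remote tumor and 0.553% [0.410, 0.728] in CTX. Slc2a1 held 88.1% and 89.3% of the reads of the glucose transporter pair against 81.5% and 79.3%. Slc16a1 held 54.2% and 48.1% of the reads of the lactate carrier pair against 37.1% and 40.6%.

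Among the oxygen sensors, Egln3 held 19.3% [17.9, 20.8] of the reads of Egln1, Egln2 and Egln3 in the MV left tumor and 25.9% [24.5, 27.3] in TRP-1MV, against 3.88% [3.34, 4.47] in the remote tumor and 3.98% [3.42, 4.59] in CTX. Epas1 held 3.03% and 3.38% of alpha subunit reads against 6.46% and 6.12%. Bnip3l held 52.6% and 50.6% of the reads of the Bnip3 pair against 41.8% and 42.8%. In each of these families the intervals of the virus-treated libraries did not overlap those of the other libraries. How often this holds for other gene families was not computed. By level, both virus-treated libraries lay above both others for 41.9% of all genes compared and below them for 46.7%.

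**Figure D4:**
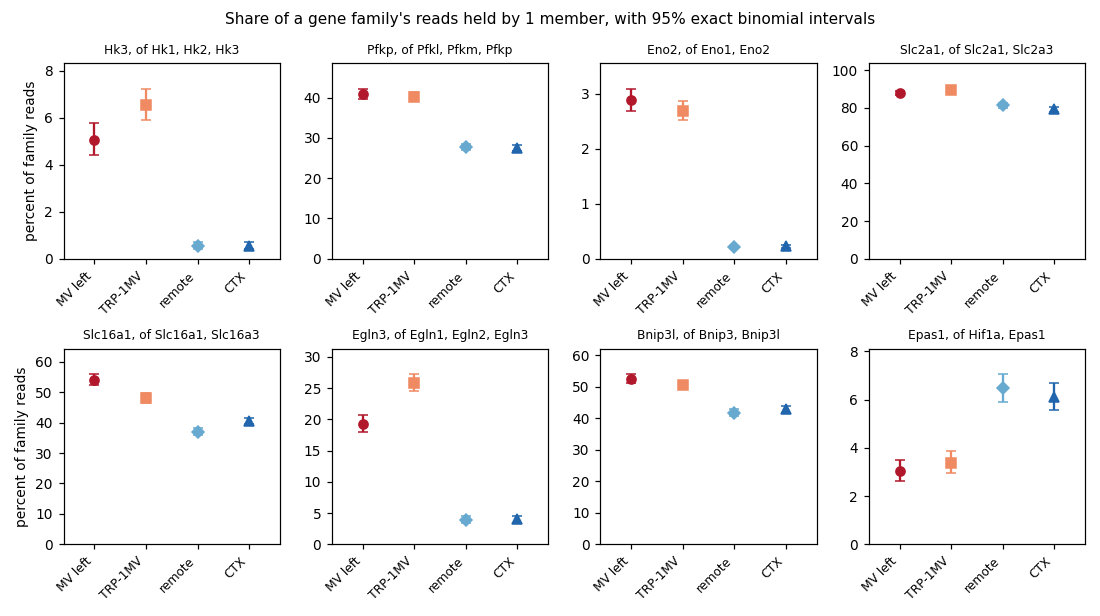
Percent of the reads of a gene family held by 1 of its genes in each library, for 8 families, with 95% exact binomial intervals. Eno2, Hk3 and Egln3 hold more of their families in the MV left tumor and TRP-1MV, and Epas1 holds less.

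The remote tumor was then compared with CTX. None of the 37 was called higher or lower, where 0.457% of all genes were higher and 0.247% lower (0.704% in either direction). The median log2 ratio of the members was 0.01. The highest was Gapdh at 0.32 [0.30, 0.34], for which the interval excluded equality, and the lowest Pfkfb4 at -0.21 [-0.58, 0.15]. Egln3, with 182 and 178 reads, stood at -0.02 [-0.33, 0.28]. The intervals of 16 members excluded equality, and the share of all genes for which this held was not computed. Such intervals are narrow at high counts, as for Gpi1 at 0.05 [0.03, 0.07] from 38560 and 35962 reads. Without animal replicates such small differences cannot be set against the spread between tumors.

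The virus-treated libraries were compared with each other. None of the 37 was called, where 0.562% of all genes were higher and 0.217% lower in TRP-1MV (0.779% in either direction). Egln3 had the highest log2 ratio at 0.59 [0.44, 0.73], followed by Pfkfb4 at 0.52 [0.16, 0.89], Ankrd37 at 0.42 [-0.03, 0.88], Pfkfb3 at 0.34 [0.22, 0.46] and Slc16a3 at 0.32 [0.22, 0.42]. The core enzymes ran from -0.07 for Pgk1 to 0.18 for Hk1. Summed CPM of the macrophage and monocyte markers was 1444 in TRP-1MV and 992 in the MV left tumor, and of the neutrophil markers 274 and 173; their part in these differences was not tested.

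The injected left tumor was also compared with the remote tumor of the same treatment group. Here 13 members were lower and 5 higher, where 11.7% of all genes were lower, 18.6% higher and 30.3% either. The higher ones were Egln3 at 2.26 [2.01, 2.50], Eno2 at 1.98 [1.79, 2.18], Ankrd37 at 1.21 [0.64, 1.79], Pfkfb3 at 1.14 [1.00, 1.29] and Kdm3a at 1.01 [0.95, 1.07]. The Kdm3a call was lost (0.999) with TMM factors computed without ribosomal protein genes. The lowest was Eno1 at -1.82 [-1.84, -1.80], and the core median was -1.24. Of the core enzymes 12 were lower, and 7 with total counts or on the housekeeping scale, where 6.75% and 6.04% of all genes were lower.

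This comparison shares no library with that of TRP-1MV against CTX. In both, 10 members were lower (Pfkl, Pfkm, Aldoa, Tpi1, Gapdh, Pgk1, Pgam1, Eno1, Ldha and Ldhb), where 9.44% of all genes were lower in both. In both, 4 were higher (Eno2, Pfkfb3, Egln3 and Ankrd37), where 16.6% of all genes were. None was called in opposite directions, and 5 were called in only 1 of the comparisons (Slc16a3, Gpi1, Pkm, Pdk1 and Kdm3a). For these last counts the shares of all genes were not computed.

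**Figure D5:**
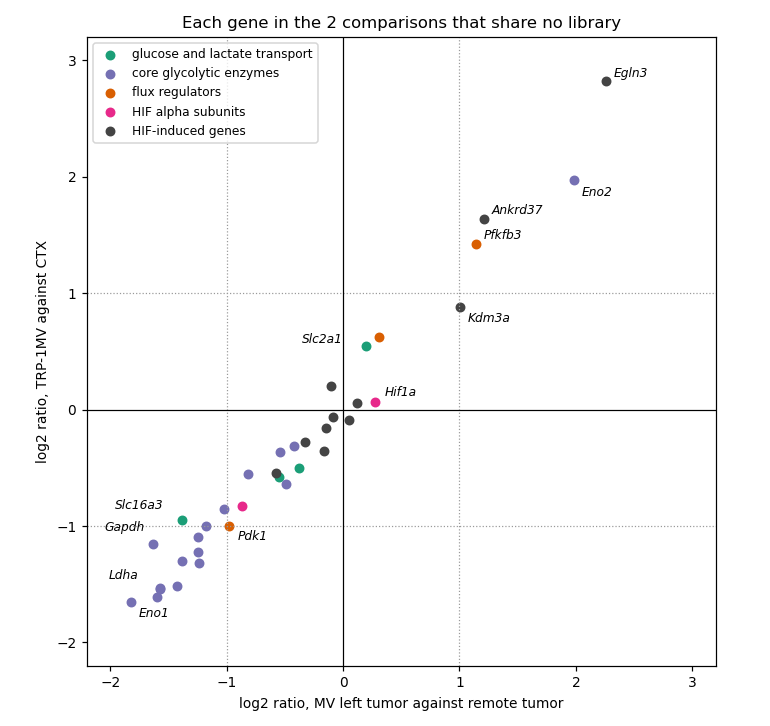
Log2 ratio of each of the 37 genes in the MV left tumor against the remote tumor (horizontal) and in TRP-1MV against CTX (vertical), colored by role; dotted lines mark a ratio of 2. Egln3, Eno2, Ankrd37 and Pfkfb3 lie beyond the lines at the upper right, and 10 members, all of them core enzymes, at the lower left.

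The ACGTG form of the core of the hypoxia response element, or its reverse complement CACGT, was searched in RefSeq promoter windows. The windows (build GRCm38.p6) ran from 250 bases before to 50 after the start, and both strands were searched. Of the 37 genes 33 have a window in that table, some of them several. The motif was in at least 1 window of 22 of the 33 genes (66.7%), against 21.8% of all 27025 genes in the table. It was found for 8 of the 13 members lower in the MV left tumor against CTX and for 3 of the 4 higher ones, so genes of both directions bear it. The other form of the core, GCGTG, whose reverse complement is CACGC, was in 56.2% of the member windows and 32.4% of all windows. A match describes the sequence and does not show that HIF binds there.

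The 250 bases before the start of 4 members are shown 5′ to 3′ because Egln3 and Pfkfb3 were higher and Ldha and Pgk1 lower in both virus-treated libraries, and each holds the motif, which is in capitals. CACGTG is a match on both strands.
Egln3, chr12:54203875-54204124, minus strand: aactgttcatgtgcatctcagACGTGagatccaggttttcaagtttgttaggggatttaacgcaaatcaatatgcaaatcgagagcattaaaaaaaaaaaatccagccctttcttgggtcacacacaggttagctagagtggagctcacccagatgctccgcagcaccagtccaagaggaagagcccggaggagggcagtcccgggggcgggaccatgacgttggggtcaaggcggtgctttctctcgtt
Pfkfb3, chr2:11502091-11502340, minus strand: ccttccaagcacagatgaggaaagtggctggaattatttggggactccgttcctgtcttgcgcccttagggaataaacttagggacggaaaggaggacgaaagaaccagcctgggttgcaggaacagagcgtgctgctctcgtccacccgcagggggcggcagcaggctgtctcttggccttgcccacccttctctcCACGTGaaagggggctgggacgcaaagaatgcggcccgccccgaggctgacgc
Ldha, chr7:46845554-46845803, plus strand: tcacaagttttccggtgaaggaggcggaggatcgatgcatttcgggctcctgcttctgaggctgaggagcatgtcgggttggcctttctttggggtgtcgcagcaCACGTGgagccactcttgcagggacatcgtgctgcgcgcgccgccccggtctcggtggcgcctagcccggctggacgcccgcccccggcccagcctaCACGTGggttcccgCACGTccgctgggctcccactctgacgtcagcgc
Pgk1, chrX:106186850-106187099, plus strand: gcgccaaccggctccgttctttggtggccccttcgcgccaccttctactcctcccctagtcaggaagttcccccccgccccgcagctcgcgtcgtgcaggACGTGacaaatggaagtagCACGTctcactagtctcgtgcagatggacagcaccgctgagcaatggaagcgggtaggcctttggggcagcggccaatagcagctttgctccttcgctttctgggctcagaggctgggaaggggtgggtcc
Ldha has 3 such stretches, starting at positions -145, -48 and -34 from the start site. Pgk1 has 2, at -150 and -131, whereas Egln3 has 1 at -229 and the Pfkfb3 window shown, 1 of 2 that bear the motif, holds it at -53. Eno2, the other clearly higher enzyme, has no ACGTG match in its window, and Eno1, with the lowest ratio, has none in any of its 3. The GCGTG form has 2 matches in each Eno1 window and none in that of Eno2.

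Further lists covered other genes of the pathway. Over all genes compared, 18.1% were higher and 11.1% lower in the MV left tumor against CTX, and 18.5% and 11.7% in TRP-1MV. Of 14 further glycolytic isozyme and related genes 8 passed the minimum count. Of these, 1 (12.5%) was higher and 1 (12.5%) lower in each virus-treated library against CTX. The higher one was Hk3, at 15.7 CPM in the MV left tumor, 21.7 in TRP-1MV, 2.56 in the remote tumor and 2.61 in CTX, with log2 ratios of 2.59 [2.14, 3.06] and 3.06 [2.63, 3.52]. The lower one was Pgm1, a phosphoglucomutase gene, at -1.13 and -1.05. Of 9 measured pyruvate dehydrogenase genes, the kinase gene Pdk2 was higher (1.24 and 1.37) and the core subunit gene Dlat lower (-1.20 and -1.18) in both. The phosphatase gene Pdp1 passed in the MV left tumor (1.03) and not in TRP-1MV (0.95). The higher share of that list was 22.2% in the MV left tumor and 11.1% in TRP-1MV, and the lower share 11.1% in each. Of 9 pentose phosphate genes 1 (11.1%) was lower in both, H6pd, at -1.34 and -1.13, and none was higher.

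Next came the machinery around HIF. Of 9 measured genes, Arnt and Vhl among them, none was called in the MV left tumor. In TRP-1MV 1 (11.1%) was higher, Arnt2, with 21 reads against 11, where 18.5% of all genes were higher. Of 26 measured further HIF-induced genes, 6 were higher and 2 lower in the MV left tumor against CTX, and 7 higher and 2 lower in TRP-1MV, with medians of 0.33 and 0.35. The shares of 23.1% and 26.9% higher and 7.69% lower stand beside 18.1% and 18.5% higher and 11.1% and 11.7% lower over all genes. The matrix crosslinking gene Lox had 278, 472, 21 and 13 reads in the same order of libraries, with log2 ratios of 4.92 [4.13, 5.85] and 5.43 [4.65, 6.35]. The chemokine receptor gene Cxcr4, also a leukocyte gene, stood at 4.54 and 5.10. Stc2 had 14 and 29 reads in the virus-treated libraries and 0 in both others.

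Vegfa, the angiogenic factor that HIF is best known to induce, was at 178 CPM in the MV left tumor, 192 in TRP-1MV, 131 in the remote tumor and 138 in CTX. Its log2 ratios of 0.37 [0.29, 0.45] and 0.49 [0.41, 0.56] did not pass. The 2 lower genes of that list, Mif at -1.496 and -1.39 and Tfrc at -1.04 and -1.19, were named after their values were seen.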

How the data were processed

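RNA-seq gave 4 libraries, 1 per group, with groups taken from the sample titles. The authors deposited raw counts per gene symbol, with no normalization. Per the submitters' processing notes, reads were aligned with HISAT2 and counted with featureCounts on build mm10. Not given in the sources used here are versions, annotation, strand setting and the handling of multiply mapped reads. Positions and exon lengths came from GENCODE M21 of the same build (for Aldoa, the older of the gene IDs).

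Counts were scaled with TMM over the 4 libraries (edgeR 4.0.16, R 4.3.3). Log2 ratios and their 95% Clopper-Pearson intervals, conditional on the summed count, were computed in Python 3.11.15 with numpy 2.4.6, pandas 2.3.3 and scipy 1.17.1. Figures were drawn with matplotlib 3.10.9. Genes with a mean count of at least 10 were compared. The calling rule was run on simulated counts that held counting error only, so that check says nothing about spread between tumors. A count of 0 was set to 3 reads per library in ratios.

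In the text stand the members called in either virus-treated library against CTX, and Egln3, Hif1a, Epas1, Hk2, Slc2a1, Ldha, Gapdh and Car9; the other members are given by their ratios. Of each list of other pathway genes, at most 4 called genes by size of the ratio, with Hk3 and Vegfa, are named. One gene that this rule names is not reported here. The members and lists were chosen with earlier results of these data known. Alternatives were size factors of DESeq2 1.42.0, upper-quartile factors, total counts, a scale of 17 housekeeping genes without any member, TMM without 108 ribosomal protein genes, other minimum counts and ratio thresholds, a prior count of 2, thinning to the smallest total, and means or shorter gene groups.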

Additional observations from a re-analysis of the deposited data

How the results depend on the processing

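No paired analysis was possible because no group held more than 1 library, and for the same reason no replicate could be left out. Scaling on total counts added 0.24 to every log2 ratio of the MV left tumor and of TRP-1MV against CTX and 0.26 to those of the MV left tumor against the remote tumor, and the housekeeping scale added 0.26, 0.28 and 0.31. On the housekeeping scale the lower members numbered 8, 7 and 8 in these comparisons, and 6 in both comparisons that share no library. Of all genes compared, 6.32%, 6.48% and 6.04% were lower on that scale, beside 11.1%, 11.7% and 11.7% with TMM. With total counts the lower members numbered 7 in TRP-1MV against CTX and 8 in the MV left tumor against the remote tumor. Of all genes compared, 6.97% and 6.75% were lower there. In both comparisons that share no library, 6 members were lower with total counts. For that joint count the share of all genes was computed with TMM only. A ratio of at least 4 left 0 lower members in each of the 3 comparisons and 2, 1 and 1 higher ones. That threshold left 1.69%, 1.8% and 1.72% of all genes compared lower and 10.9%, 11.2% and 10.7% higher. An interval excluding a ratio of 2 left 2 higher members in the MV left tumor against CTX and 2 against the remote tumor. Of all genes compared, 13.8% and 14.1% were higher under that rule. With a ratio of at least 1.5, 1 member was higher in TRP-1MV against the MV left tumor, where 2.44% of all genes were. Among the core enzymes alone, 7 were lower on the housekeeping scale in each of the 3 comparisons, and 8, 7 and 7 with total counts. The other counts over all 37 members stayed within 1.5 times of those reported. No called member changed sign under another scaling or the prior count. The difference between the HIF-induced and core medians was 1.24, 1.30 and 1.31 with means, in the order above, and 1.22 in TRP-1MV against CTX and 1.23 in the MV left tumor against the remote tumor without P4ha1, P4ha2 and Adm. For the remote tumor against CTX it was -0.06, and -0.0715 with means, -0.0449 without those genes and -0.0665 without Pfkm, Aldoc, Eno2 and Ldhb. For TRP-1MV against the MV left tumor it was -0.01, and 0.0592, 0.0174 and -0.0559 in that order. Depth limits mainly Ankrd37 and Pfkfb4, which had 42 to 173 reads per library.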
